A study of Saccharomyces cerevisiae with 14 samples.

Results

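The genes described here encode the chaperone cycle of Kar2 in the endoplasmic reticulum (ER) of budding yeast: Kar2 itself, its nucleotide exchange factors Lhs1 and Sil1, and the ER J-proteins Scj1, Jem1 and Erj5. They were taken as a list of 6 gene names, and all 6 were found on both array formats, among 5315 genes named on both and 4287 bright enough to be tested. Each has 1 probe set (the group of probes read out as a single value) per format, and none of these is marked as cross-hybridising.

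Transcripts were measured in 5 RNA samples of Saccharomyces cerevisiae, 3 from ARV1 mutants and 2 from controls, all mating type a, of W303 background, and harvested from rich glucose medium (YEPD) in mid-logarithmic growth. On the Ye6100 format, where a sample is spread over 4 chips, control 1/2 was strain SCY328, mutant 1 was isolate SCY820 and mutant 2 was isolate SCY840. On the single-chip S98 format control 3 was strain SCY2004 and mutant 3 was isolate SCY840 again. ARV1 encodes an ER membrane protein linked to lipid transport. The labels name the mutants only as ARV1 mutants, and they state neither the kind of allele nor the number of separate cultures. Any p-value therefore measures the spread between these samples, which may be technical.

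Kar2, the yeast BiP, is an HSP70 that binds unfolded chains in the ER lumen and helps to pull new proteins through the translocon. J-proteins stimulate Kar2 to hydrolyse ATP, which locks it onto its client, and exchange factors then free the ADP so that the client is let go. KAR2 is a textbook target of the unfolded protein response, in which the ER sensor Ire1 leads to splicing of the HAC1 messenger and Hac1 switches on folding genes.

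Values are signals on a linear scale, those of S98 after both samples were brought to a common trimmed mean, and each mutant is set against the control of its own format. Mutants 1 and 2 share 1 control. A signal cannot be compared between genes, whose probes differ. The ARV1 transcript had a signal of 33.4 in control 1/2, against 1.0 for mutant 1 and 2.2 for mutant 2. Control 3 gave 51.8, against 6.79 for mutant 3. ARV1 did not pass the signal filter, and its signals in mutants 1 and 2 lay under the Ye6100 floor of 2.4. Signals of ACT1 probe sets at the 5' and the 3' end of the transcript, a measure of RNA length, stood in a ratio of 0.781 in control 1/2, 0.764 for SCY820 (mutant 1) and 0.351 for SCY840 (mutant 2). The S98 samples gave 1.15 (control) and 1.17 (mutant). For 26 control probe sets repeated on all 4 chips, the log2 ratio to control 1/2 had a median SD between chips of 0.31 in mutant 1 and 0.35 in mutant 2. For the labelled mating type, all 6 a-cell genes looked at passed the signal filter, from STE6 at 102.6 in control 1/2 to MFA2 at 4273, and 0 of 4 alpha-cell genes did.

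Signals of the 5 Kar2 partners lay above control in each of the 3 mutants, although no gene passed the test over all genes, and KAR2 lay above control in both Ye6100 mutants and below it in the S98 mutant. SIL1 had the highest fitted change and the narrowest range, between 5.13- and 6.01-fold above control. LHS1 was at 2.03- to 3.84-fold. The J-protein genes were higher in every mutant but by very unequal amounts, with JEM1 between 1.25- and 5.11-fold, ERJ5 between 1.52- and 6.17-fold and SCJ1 between 1.12- and 2.03-fold. KAR2 was 1.58- and 1.86-fold above control on Ye6100 and at 0.731 of control on S98. None of the 6 genes passed limma's test over all genes at an adjusted p under 0.05. That test called 0% of the 4287 genes, with 5.44% higher and 1.12% lower at an unadjusted p under 0.05.

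**Figure D1:**
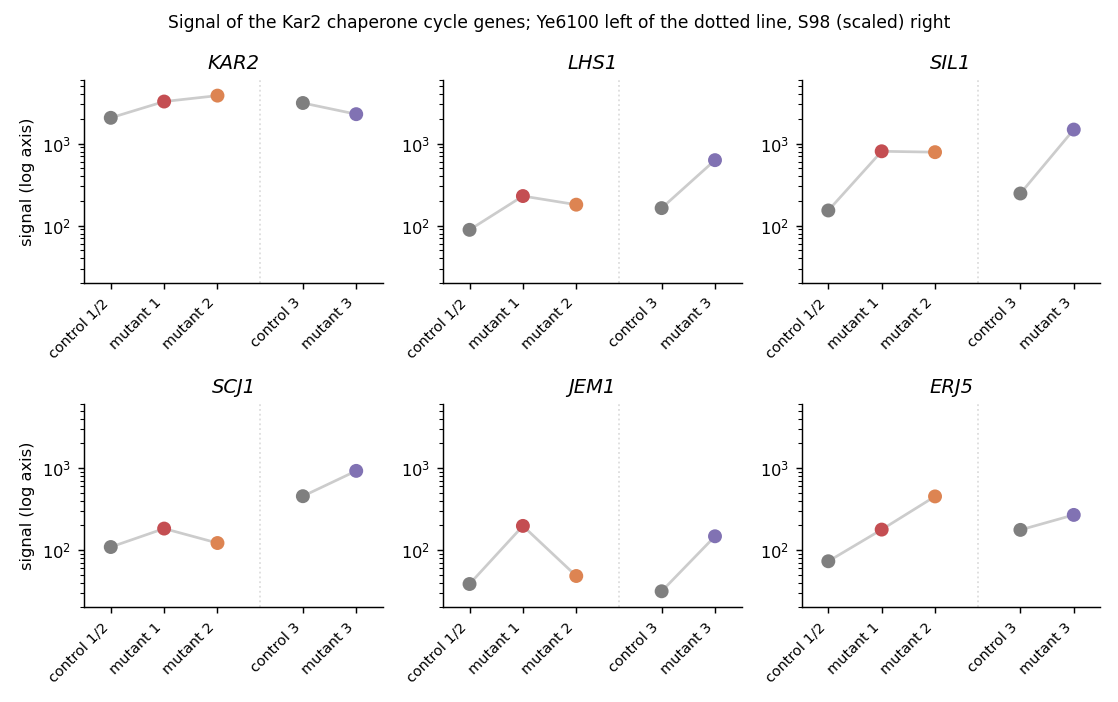
Signal (log axis) of each gene in each sample, 1 panel per gene, with grey points for controls and coloured points for mutants. Ye6100 samples lie left of the dotted line and S98 samples, scaled, right of it. SIL1 goes from 153.1 in control 1/2 to 805.7 and 786.0 in mutants 1 and 2, while KAR2 goes down on S98, from 3123 to 2283.

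Sil1 is an exchange factor that opens the nucleotide-binding site of Kar2. On Ye6100 control 1/2 gave a SIL1 signal of 153.1, against 805.7 for mutant 1 and 786.0 for mutant 2. On S98 control 3 gave 246.5, against 1482 for mutant 3. All 3 mutants were thus high, and no mutant came near the control of its format. The log2 ratios were 2.40, 2.36 and 2.59 in mutants 1, 2 and 3. The fitted log2 change was 2.47 ± 0.36 (SE, 3 mutants and 2 controls), with a 95% confidence interval from 1.59 to 3.35 and a limma adjusted p of 0.318. SIL1 ranked 12 of the 4287 genes by fitted change, and 1.07%, 0.63% and 0.443% of genes had a higher ratio in mutants 1, 2 and 3.

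Lhs1 is related to HSP70s and acts on Kar2 as an exchange factor, while Kar2 in turn stimulates Lhs1. From a Ye6100 control at 88.9, the LHS1 signal reached 229.4 with mutant 1 and 180.1 with mutant 2. The S98 pair had 163.5 (control 3) and 628.4 (mutant 3). Each mutant lay above the 1 control of its format. The log2 ratios were 1.37, 1.02 and 1.94, the fitted change was 1.51 ± 0.38, with an interval from 0.59 to 2.44, and limma's adjusted p was 0.526. Both exchange factor genes were thus at least 2-fold above control in all 3 mutants, which 2.08% of all genes were, and none of the other 4 genes was. LHS1 passed narrowly in mutant 2, by less than the chip SD of 0.35. With S98 signals as deposited its ratio in mutant 3 was 0.94, under 2-fold.

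Jem1 is a J-protein of the ER membrane that takes part in nuclear fusion during mating and in the degradation of misfolded proteins. Control 1/2 had a JEM1 signal of 38.5, while mutant 1 had 196.6 and mutant 2 had 48.2. On S98, control 3 had 31.4 while mutant 3 had 146.9. Mutants 1 and 3 were high, and mutant 2 lay close to its control, less than 1 chip SD above it on the log2 scale. The log2 ratios were 2.35, 0.32 and 2.23, and the fitted change was 1.72 ± 0.67, with an interval from 0.06 to 3.38 and a limma adjusted p of 0.735. Controls were near the signal filter of 25.4 on Ye6100 and 28.1 on S98, so these ratios start from a low signal.

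Erj5 is a membrane J-protein that helps to keep up the folding capacity of the ER. For ERJ5 the Ye6100 signals were 72.9 (control 1/2), 177.3 (mutant 1) and 449.7 (mutant 2). Those on S98 were 175.8 (control 3) and 267.6 (mutant 3). ERJ5 had its highest ratio in the sample where JEM1 had its lowest. The log2 ratios were 1.28, 2.62 and 0.61, the fitted change was 1.38 ± 0.56, with an interval from -0.01 to 2.76, and the limma adjusted p was 0.735. In mutant 2 only 0.373% of genes had a higher ratio, against 22.3% in mutant 3.

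Scj1 is a soluble J-protein of the ER lumen that works with Kar2 in folding and in degradation. Control 1/2 showed an SCJ1 signal of 108.7, compared with 182.4 for mutant 1 and 121.6 for mutant 2. Control 3 showed 452.5, compared with 920.7 for mutant 3. The mutants lay above their controls, mutant 2 by less than the spread between chips. The log2 ratios were 0.75, 0.16 and 1.02, and the fitted change was 0.70 ± 0.39, with an interval from -0.26 to 1.66 and a limma adjusted p of 0.828.

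KAR2 had a signal of 2061 in control 1/2, below the 3254 of mutant 1 and the 3842 of mutant 2. On S98 control 3 stood at 3123, above the 2283 of mutant 3. Both Ye6100 mutants lay above their control and the S98 mutant below its own, a pattern that 9.84% of all genes showed. The log2 ratios were 0.66, 0.90 and -0.45, and the fitted change was 0.25 ± 0.42, with an interval from -0.80 to 1.30 and a limma adjusted p of 0.957. The interval includes both a fall and a doubling, so these samples do not settle whether the KAR2 transcript differed. The change on S98 minus that on Ye6100 was -1.23 ± 1.21 on the log2 scale, with a limma adjusted p of 1.00 for the interaction of genotype and format. That interaction was called for 0% of genes, and 0.14% passed at an unadjusted p under 0.05. For each gene, the residual of the interaction fit comes only from the difference between mutants 1 and 2, which are different isolates.

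KAR2 is among the brightest probe sets on S98, and bright genes as a group were lower in mutant 3. Of the 215 tested genes in the brightest 5% by mean S98 signal, 85.1% had a ratio below 0 in mutant 3, against 40.8% of all tested genes. Their median log2 ratio was -0.25 for mutant 3, against -0.23 for mutant 1 and 0.20 for mutant 2. KAR2 is the 1 gene of the 6 in this bin, chosen after its value had been seen, and the part of brightness in its S98 ratio was not tested. With a signal-dependent scaling, cyclic loess within each format, also added after seeing the data, the S98 ratio of KAR2 was -0.24 and its fitted change 0.43.

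**Figure D2:**
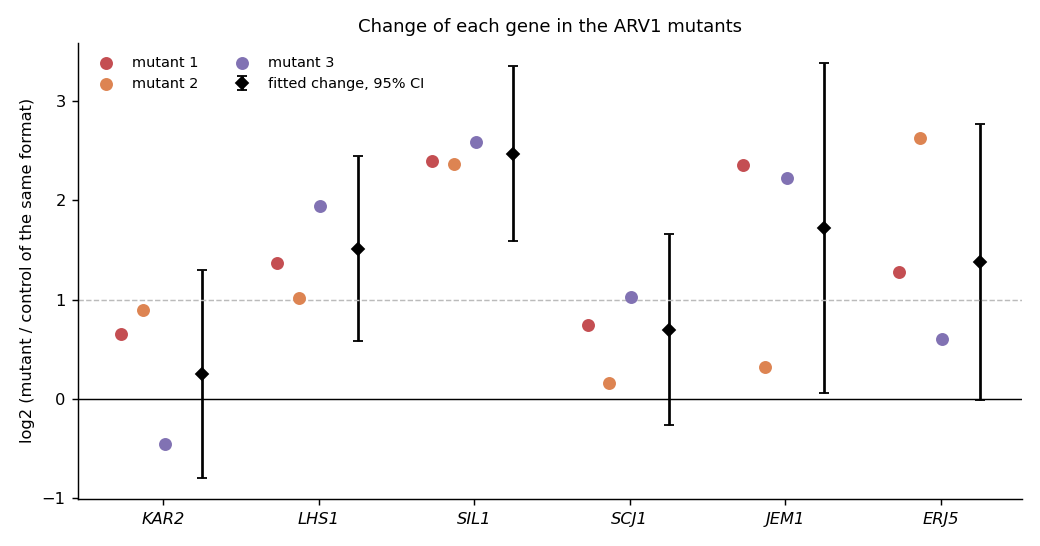
Log2 ratio of each mutant to the control of its own format (coloured points) and the fitted change with its 95% confidence interval (black diamonds) for each gene; the dashed line marks a 2-fold increase. The 3 points of SIL1 lie within 2.36 to 2.59, those of JEM1 between 0.32 and 2.35, and KAR2 alone has a point below 0.

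Counted over the list, 5 of the 6 genes were higher in all 3 mutants, which 26.2% of all tested genes were, and 0 were lower in all 3, as 14.6% were. The median fitted log2 change was 1.45, beside 0.10 over all tested genes. At least 2-fold above control were 4 of the 6 genes in mutant 1, against 15.3% of all genes, 3 in mutant 2, against 12.5%, and 4 in mutant 3, against 9.98%. The list was not the same from mutant to mutant. LHS1 and SIL1 were in all 3, JEM1 in mutants 1 and 3, ERJ5 in mutants 1 and 2, and SCJ1 in mutant 3. The calls depended on mutant 2, the sample with the low ACT1 ratio. Without it limma called 5 of the 6 genes higher, all but KAR2, in a fit that called 13.3% of all genes higher. Without mutant 1 it called SIL1 alone of the 6, where 0.467% of all genes were called higher. Each of these fits has 1 mutant and 1 control per format. The error then comes from the difference between the 2 mutants left and from variance pooled over genes. The part of RNA length in the values of mutant 2 was not tested.

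The same isolate, SCY840, was measured on both formats, in mutants 2 and 3, with log2 ratios that differed by 0.86 or more for all but SIL1. SIL1 had 2.36 on Ye6100 and 2.59 on S98. The S98 ratio minus the Ye6100 ratio was 1.90 for JEM1, 0.92 for LHS1 and 0.86 for SCJ1. It was -2.02 for ERJ5 and -1.35 for KAR2, which was above control on Ye6100 and below it on S98. Between the isolates on Ye6100, SCY840 minus SCY820, the log2 difference was 0.24 for KAR2, -0.35 for LHS1, -0.04 for SIL1 and -0.58 for SCJ1. It was -2.03 for JEM1 and 1.34 for ERJ5, and each side of this comparison is 1 sample, so it has no test. Format and control strain differ together between mutants 2 and 3, as may the culture, and cannot be told apart. Mutant 2 enters both comparisons and had the low ACT1 5' to 3' ratio, 0.351 against 0.764 in mutant 1. RNA length thus cannot be told apart from isolate or format here, and its part was not tested.

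The change of each partner relative to KAR2 within the same sample does not depend on the scaling factor of that sample, but does on a scaling that varies with the signal (quantile normalization or loess). SIL1 exceeded KAR2 in every mutant, by a log2 value of 1.74, 1.46 and 3.04 in mutants 1, 2 and 3, and under quantile normalization by 1.18, 1.65 and 2.77. ERJ5 minus KAR2 was 0.62, 1.73 and 1.06, but in mutant 1 it was -0.04 under quantile normalization and -0.02 under loess. LHS1 minus KAR2 was 0.71, 0.12 and 2.39, and in mutant 1 it came to 0.05 and 0.07 under those settings. SCJ1 and JEM1 were below KAR2 in mutant 2, at -0.74 and -0.57. SCJ1 was at 0.09 in mutant 1, and at -0.57 and -0.55 there under quantile normalization and loess. In mutant 3, where KAR2 itself was low, all 5 partners exceeded KAR2 under each scaling. The excess ran from 1.06 for ERJ5 to 3.04 for SIL1 in the main analysis. Under quantile normalization it ran from 0.62 to 2.77 for the same genes. These are differences between ratios with no test.

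**Figure D3:**
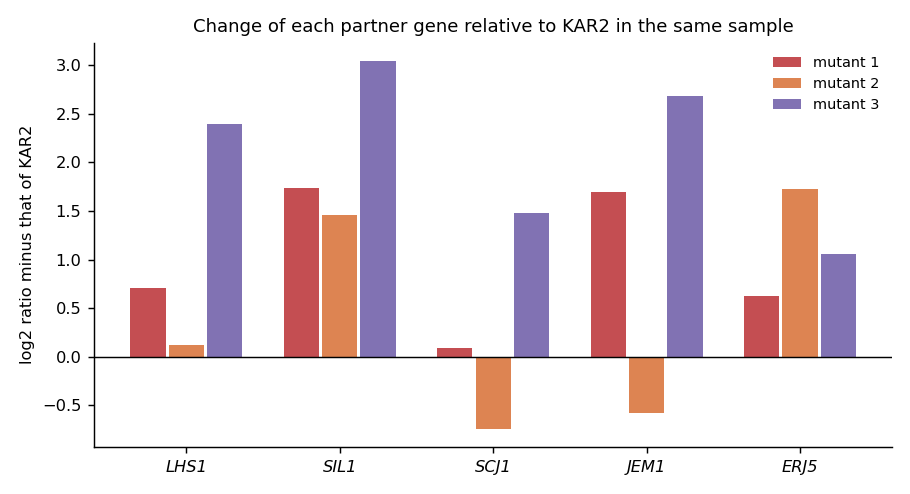
Log2 ratio of each partner gene minus that of KAR2 in the same mutant, with 1 bar per mutant. Bars of LHS1, SIL1 and ERJ5 are above 0 in all 3 mutants, and those of SCJ1 and JEM1 are below 0 in mutant 2. Under quantile normalization, not drawn, ERJ5 and SCJ1 in mutant 1 are at -0.04 and -0.57.

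The fitted change of KAR2 and the sign of ERJ5 in mutant 3 depended on whether the S98 samples were scaled. With S98 signals as deposited, where control 3 has a trimmed mean of 500.3 and mutant 3 of 250.1, the median log2 ratio of all genes in mutant 3 was -0.87. The ratio in mutant 3 was then 1.59 for SIL1, 0.94 for LHS1, 1.23 for JEM1, 0.02 for SCJ1, -0.39 for ERJ5 and -1.45 for KAR2, so that ERJ5 as well as KAR2 was below its control. The fitted change of KAR2 was then -0.18, in place of 0.25, and those of the 5 partners stayed above 0. Under median centring, quantile normalization and loess, the 5 partners were higher in all 3 mutants, and KAR2 remained below 0 in mutant 3, at -0.70, -0.25 and -0.24.

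HSP70 systems of the cytosol and mitochondria were looked at beside that of the ER. Over all tested genes, 26.2% lay above control in all 3 mutants and 14.6% below. Of 18 tested cytosolic HSP70s, exchange factors and J-proteins 0 lay above control throughout and 3 lay below it, with a median fitted log2 change of 0.00. Their median ratio was 0.34, -1.12 and -0.08 in mutants 1, 2 and 3. SSA3, a stress-induced cytosolic HSP70 gene, had a signal of 241.5 in mutant 1, beside 10.5 in control 1/2 and 1.4, under the floor, in mutant 2. Its S98 signals were 26.2 (control) and 70.9 (mutant), so it passed the filter through the mutants and its control signals lay under it on both formats. XDJ1, a J-protein gene, had log2 ratios of -0.93, -1.29 and -0.44. SSA1, another cytosolic HSP70 gene, had 0.43 and -2.07 on Ye6100 and is listed at 0 in control 3. Of 7 tested mitochondrial genes of this kind 0 lay above and 2 below control in every mutant, with a median change of -0.35. For MDJ2, a mitochondrial J-protein gene, the fitted log2 change came to -0.76 ± 0.45, and for PAM16 and PAM18, of the import motor, to -0.67 ± 0.40 and -0.63 ± 0.53. None of these genes was called by limma, and the difference between compartments was not tested.

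**Figure D4:**
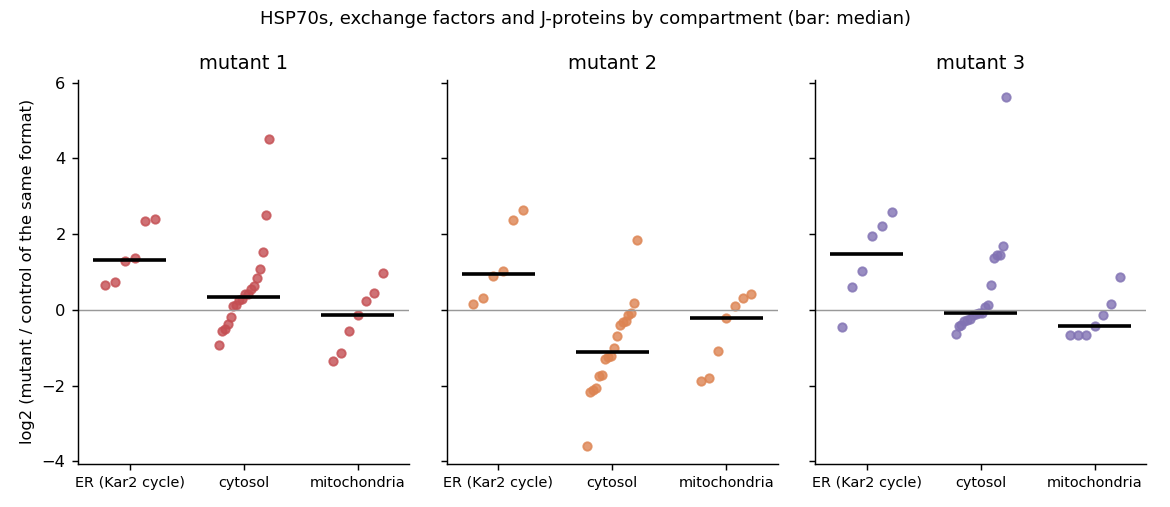
Log2 ratio of each tested gene (points) for HSP70s, exchange factors and J-proteins of the ER, cytosol and mitochondria, 1 panel per mutant, with black bars for medians. ER medians are 1.32, 0.96 and 1.48, and cytosolic medians 0.34, -1.12 and -0.08; the highest cytosolic point in mutant 3 is SSA1, whose control 3 signal is listed at 0 and was raised to the floor.

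Among 12 other folding enzymes 8 exceeded control in all 3 mutants and 0 lay below it, with a median fitted log2 change of 0.59, and limma called 0. The shares over all tested genes were 26.2% above and 14.6% below. ERO1, the oxidase that feeds disulfide formation, had log2 ratios of 1.96, 2.02 and 2.15. That range is slightly narrower than the 2.36 to 2.59 of SIL1. EUG1 and MPD1, relatives of protein disulfide isomerase, had fitted changes of 1.33 ± 0.34 and 1.37 ± 0.37. PDI1 itself, lowest on S98 like KAR2, had ratios of 1.53, 1.97 and 0.45. Among 8 translocation genes 4 exceeded control in all 3 mutants and 1 lay below it, at a median change of 0.59. SEC63, the J-protein of the translocon and so another partner of Kar2, had 0.40, 0.06 and 0.97, while SEC72, SEC66 and SEC61 had fitted changes of 1.21 ± 0.36, 1.14 ± 0.51 and 1.01 ± 0.54.

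Of 15 tested genes of ER-associated degradation 7 exceeded control in all 3 mutants and 0 lay below it, at a median change of 0.52. All tested genes had shares of 26.2% and 14.6%. DER1, a membrane protein of that pathway, had log2 ratios of 2.48, 2.72 and 1.75. Its S98 probe set is marked as matching more than 1 sequence. USA1 and DFM1 had fitted changes of 1.04 ± 0.39 and 1.03 ± 0.39. Among the regulators of the unfolded protein response, 3 of 5 passed the signal filter, and IRE1 and TRL1 did not. HAC1 had ratios of 0.75, 0.97 and 0.53, from the brightest of its 5 probe sets on S98, and a level of this kind does not measure splicing. PTC2, a phosphatase gene, had 0.27, -1.65 and 0.02, and DCR2, another, 0.45, 0.02 and 0.42. Limma called 0 genes in these lists.

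For each gene the 3 tested genes nearest to it in the log2 ratios of the 3 mutants were noted, with distances on the log2 scale. Nearest to SIL1 were YIL108W at 0.45, THI21 at 0.67 and ERO1 at 0.70. Nearest to LHS1 were ARH1, PAU15 and CLP1, at 0.21, 0.21 and 0.27. KAR2 lay nearest to MIX14, SDH3 and PRS4, at 0.14, 0.15 and 0.16, and SCJ1 to FTH1, CSI2 and TUL1, at 0.06, 0.07 and 0.10. JEM1 lay nearest to ADR1, MOH1 and YNR066C, at 0.33, 0.35 and 0.39. For ERJ5 they were HTC1, LCL2 and KEG1, at 0.27, 0.33 and 0.33. With 3 ratios, of which 2 share a control, such likeness is a description only.

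KEG1 (YFR042W) is the chromosomal neighbour of ERJ5 (YFR041C) on the other strand. Control 1/2 gave a KEG1 signal of 60.5, below the 172.3 of mutant 1 and the 423.9 of mutant 2. Control 3 gave 535.8, below the 911.8 of mutant 3. Its log2 ratios were 1.51, 2.81 and 0.77, beside 1.28, 2.62 and 0.61 for ERJ5. KEG1 was picked for its likeness in these ratios, so the shared order follows from the choice. The neighbour on the other side, SAP155, did not pass the signal filter. MUD2, next to LHS1, had log2 ratios of 0.68, 0.96 and 1.05. Beside JEM1, SMC3 had 1.10, 0.56 and 0.80 and PSF2 had -0.12, 0.71 and -0.39. On either side of SIL1, OPI10 had 1.75, -0.62 and 0.92 and GAS5 had 0.89, -1.19 and 0.09. Beside SCJ1, CEF1 had 0.34, 0.31 and 0.20 and GAS3 had -0.67, -2.19 and -0.71. TAD2, next to KAR2, had -1.10, 1.07 and 0.65, while HCA4, on its other side, and STB6, beside LHS1, did not pass the signal filter. Some neighbours thus lay above control in all 3 mutants, GAS3 below, and others went both ways. These neighbours were looked up after KEG1 had been seen, and whether nearby genes share a change was not tested.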

How the data were processed

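Biotin-labelled cRNA made from poly(A) RNA was put on Affymetrix Ye6100 (4 chips a sample) or S98 arrays, per the labels' protocols. The authors deposited linear intensities from MAS5 (as named in the submitters' processing notes), with 1 signal for each probe set. Software version, scaling target and genome build: not given in the sources used here. Of 6593 Ye6100 probe sets 5837 matched a locus tag of the RefSeq gene table (R64). The platform annotation pairs 6504 of 9335 S98 probe sets with 1 symbol and 328 with several, and leaves 2503 unnamed.

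Ye6100 signals were used as deposited, and S98 signals were multiplied by 0.707 (control 3) and 1.41 (mutant 3) to a common 2% trimmed mean. Signals under the 5th percentile (2.4 and 1.98) were raised to it before log2. A gene took its brightest probe set and was tested when the mean signal exceeded the 25th percentile of both tables (25.4 and 28.1). Limma 3.58.1 in R 4.3.3 (lmFit, eBayes with a trend, two-sided, Benjamini-Hochberg over 4287 genes) fitted genotype with array format as a block, leaving 2 residual degrees of freedom. The pairing by format comes from the series' design text, in which each mutant is set against the control of its own format. The test was tried on simulated data with independent noise of the same size in each sample. Those data held no difference in the mutant effect between isolates or formats, so the trial does not show how the test performs here. Figures were drawn with matplotlib 3.10.9.

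The genes, lists and tests were chosen with earlier results of these data known. Named genes are the 6 members, ARV1, the 3 largest fitted changes of each list, HAC1, PDI1, ERO1, SEC63 and the 3 nearest genes by pattern; KEG1's counterparts among neighbours, and genes named for a mark or a listed 0, were added with their values known. Alternative settings concerned scaling, floor, filter, probe sets, block, trend and leaving out each sample, with loess added after seeing the data. Motif counts in promoters were not run, and no sequences are shown.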

Additional observations from a re-analysis of the deposited data

Results flagged for a closer look

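KAR2 moved up in both Ye6100 mutants, by a mean log2 ratio of 0.78, and down in the S98 mutant, at -0.45. The difference, S98 minus Ye6100, was -1.23 ± 1.21, with a limma adjusted p of 1.00. The 3 genes nearest to KAR2 by pattern were picked for that likeness and so show the same opposite signs, with differences of -1.21 for MIX14, -1.12 for SDH3 and -1.14 for PRS4, and limma adjusted p of 1.00 for each. Groups of 1 to 3 samples are too small for a search for outlying samples.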

How the results depend on the processing

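Under the 11 other settings of scaling, floor, filter, probe set, block and trend, 65 of 66 fitted changes kept their direction and stayed uncalled by limma. For floor, filter, probe set and trend the direction was fixed in advance. Each gene has 1 probe set per format, above floor and filter, and the trend alters only the SE. Only scaling and block could move these fitted changes. KAR2 reversed to -0.18 with S98 unscaled. That setting also gave 7 calls over all genes, a median over the 6 genes of 1.02, and 1 gene (SIL1) at least 2-fold higher in all 3 mutants. Quantile normalization gave 1 call. With no replicate block, limma made 0 calls and the median was 1.29. The median change of all genes was 0.096 in the main analysis, -0.068 with median centring, -0.33 with S98 unscaled and -0.11 without the block.

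Leaving out each sample in turn gave fitted changes from 0.61 to 1.95 for ERJ5, 1.28 to 2.29 for JEM1, -0.45 to 0.78 for KAR2, 1.19 to 1.94 for LHS1, 0.45 to 1.02 for SCJ1 and 2.38 to 2.59 for SIL1. The median ran from 1.27 to 1.48, the number at least 2-fold higher in all mutants left from 2 to 4, and the calls over all genes from 0 to 669. The lowest limma adjusted p came without mutant 2, at 6.2e-05 for SIL1 (fitted change 2.49), 1.6e-04 for JEM1, 0.00124 for LHS1 (1.65), 0.0318 for ERJ5 (0.94), 0.0393 for SCJ1 (0.89) and 0.861 for KAR2, and the highest over the alternatives was 1.00 for each. In the fit without mutant 2 the SE ran only from 0.27 (SCJ1) to 0.31 (KAR2). For JEM1 it was 0.29, beside 0.67 in the main analysis. These SEs rest largely on variance pooled over genes, so the p-values do not measure spread between replicates of 1 isolate. Without control 1/2 only 1 sample a side is left, so there is no test, and KAR2 is at -0.45. Leaving out control 3 or mutant 3 gave the same fit, of the Ye6100 samples alone, with ERJ5 at 1.95 and KAR2 at 0.78. Fewer samples enter each of these fits, and the cause of the shifts was not tested. Motif counts, an alternative planned for promoters, were not run. With 5 samples the number of arrays limits the precision.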
